A study of Homo sapiens with 11 samples.

Results

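The genes described here are 38 members of the lysosomal system: 27 enzymes, activators and other proteins of the lysosomal lumen that handle protein, lipid or glycan, 7 membrane and cholesterol transport genes, 3 genes of the proton pump and the transcription factor TFEB. They were taken by gene symbol from the 35303 genes of a table of RNA-seq counts. All 38 were found, and all 38 were among the 16117 genes with enough counts to be tested. The study exposed the human hepatic stellate cell line LX-2 (Lx2 in the labels), the collagen-making cells of the liver, to the virus HIV-1 strain BaL and to LTA, and sequenced total RNA after 24 h. The PBS group received the buffer, the HIV-1 group received virus at a multiplicity of infection of 0.1, and the HIV-1+LTA group received the same dose of virus with LTA at 1 µg/ml, with 3 libraries in each group. The labels give the genotype as wild type, and no group with LTA and without virus was analysed here, so LTA was compared only on top of virus. Each library carries a batch label, 1, 2 or 3, with 1 library of each group per batch. The labels do not say that libraries of a group came from separate cultures, so each p-value reflects only how much these 9 libraries vary, and that variation could be technical. A ChIP-seq library labelled as HIV-1-treated gave 166 peaks. Its title names Lx2 while its cell line label reads Lx5, so which cells the peaks come from is uncertain.

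The total count per library was 50628144 to 90599780, and the 38 genes together took 0.351% to 0.583% of them. Batch 3 stood apart before any treatment was considered: the 38 genes took 0.351% to 0.421% of counts there and 0.478% to 0.583% in batches 1 and 2, so treatments were compared within batch. Of 14 stellate cell markers, 12 had a mean of at least 1 CPM (counts scaled to the total count of the library with TMM factors), with SPARC, VIM, TAGLN and COL1A1 each above 1000 CPM on average, while DCN averaged 0.92 CPM and DES 0.13 CPM. These means hide wide ranges over the 9 libraries: COL1A2 ran from 33.2 to 323 CPM, VIM from 539 to 3128 CPM and LUM from 0 to 8.62 CPM. Of 16 macrophage markers, 3 reached 1 CPM (CD14, CSF1R and LAPTM5), CD68 averaged 0.42 CPM, and C1QA, C1QB, C1QC and VSIG4 were at 0 counts in all 9 libraries.

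Lysosomes are acidic compartments in which proteases, lipases, glycosidases and sulfatases break down material from endocytosis and autophagy, and inherited loss of single enzymes causes the lysosomal storage diseases. The vacuolar proton pump keeps the lumen acidic, LAMP proteins line the membrane, and NPC2 and NPC1 pass cholesterol out of the lumen. TFEB and its relatives MITF and TFE3 switch on many of these genes by binding a short element that holds the letters CACGTG. In hepatic stellate cells, lysosomal degradation also handles matrix components and lipid.

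The promoters of 26 of the 38 genes were matched by symbol in the RefSeq table (build GRCh38.p14; 250 bases before to 50 bases after each start). CTSB, CTSK, CTSO, LAMP2, HEXA, ARSA, MANBA, PSAP, ASAH1, ATP6V1H, SGSH and NAGLU are not in that table. The 250 bases before the start are printed for genes on which the treatment comparison turns (GRN, NPC2, CTSF, CTSA, CTSD and GAA; PSAP has no entry) and for MCOLN1, which holds the same extended element as GAA. They run 5′ to 3′ on the strand of the gene, and capitals mark CACGTG. The GRN window is chr17:44345052-44345301 on the plus strand, and the CTSF window is chr11:66568607-66568856 on the minus strand. The table holds 2 overlapping windows for NPC2, of which chr14:74493513-74493762 on the minus strand is printed. The CTSA window is chr20:45891085-45891334 on the plus strand, and the CTSD window is chr11:1763928-1764177 on the minus strand. The GAA window is chr17:80101331-80101580 and the MCOLN1 window is chr19:7522374-7522623, both on the plus strand.
GRN: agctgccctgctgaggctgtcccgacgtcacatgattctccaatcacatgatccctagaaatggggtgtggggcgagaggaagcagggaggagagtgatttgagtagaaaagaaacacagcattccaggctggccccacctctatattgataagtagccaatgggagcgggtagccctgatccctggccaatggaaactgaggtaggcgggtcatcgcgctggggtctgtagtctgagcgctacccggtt
NPC2: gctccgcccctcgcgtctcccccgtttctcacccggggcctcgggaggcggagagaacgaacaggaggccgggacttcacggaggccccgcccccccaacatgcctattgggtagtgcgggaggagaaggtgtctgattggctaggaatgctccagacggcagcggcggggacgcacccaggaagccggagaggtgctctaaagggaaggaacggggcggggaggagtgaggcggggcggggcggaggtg
CTSF: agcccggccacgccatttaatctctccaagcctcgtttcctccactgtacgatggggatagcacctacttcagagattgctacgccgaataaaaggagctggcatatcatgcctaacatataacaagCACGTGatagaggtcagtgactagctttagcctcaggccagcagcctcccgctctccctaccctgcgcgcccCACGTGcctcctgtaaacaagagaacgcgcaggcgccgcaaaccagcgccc
CTSA: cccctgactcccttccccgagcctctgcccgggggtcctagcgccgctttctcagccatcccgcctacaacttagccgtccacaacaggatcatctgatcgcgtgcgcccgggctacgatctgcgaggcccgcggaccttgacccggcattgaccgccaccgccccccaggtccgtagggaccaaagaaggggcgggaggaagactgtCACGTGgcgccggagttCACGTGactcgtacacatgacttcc
CTSD: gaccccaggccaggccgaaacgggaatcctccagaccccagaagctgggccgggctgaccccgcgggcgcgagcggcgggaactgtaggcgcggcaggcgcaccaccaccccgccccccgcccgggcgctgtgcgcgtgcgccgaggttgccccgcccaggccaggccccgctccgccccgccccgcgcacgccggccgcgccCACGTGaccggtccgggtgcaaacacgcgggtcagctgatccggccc
GAA: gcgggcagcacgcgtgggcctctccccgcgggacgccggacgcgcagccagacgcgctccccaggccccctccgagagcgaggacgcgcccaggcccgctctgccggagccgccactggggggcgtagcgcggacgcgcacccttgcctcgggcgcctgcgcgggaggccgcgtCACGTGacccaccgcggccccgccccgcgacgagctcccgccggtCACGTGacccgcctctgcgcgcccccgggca
MCOLN1: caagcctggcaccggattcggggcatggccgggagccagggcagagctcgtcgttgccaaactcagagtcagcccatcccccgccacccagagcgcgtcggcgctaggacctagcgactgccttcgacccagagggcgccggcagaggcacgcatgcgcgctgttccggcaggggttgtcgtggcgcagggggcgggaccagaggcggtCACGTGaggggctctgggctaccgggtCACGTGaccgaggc
The element CACGTG reads the same on both strands, and it lay in the 300-base windows of 10 of the 26 genes (38.5%), against 8.77% of all 27305 genes of the table. The longer forms TCACGTGA and GTCACGTGAC (the second being the 10 bases around both copies in GAA), which contain it and also read the same on both strands, lay in 5 genes (19.2%, against 1.18% of all genes) and in 2 genes (7.69%, against 0.421%). GAA carried the longest form in both copies, with its CACGTG beginning 76 and 31 bases before the start, and MCOLN1 carried it 14 bases before the start. CTSA held CACGTG 42 and 25 bases before the start, CTSD 47 bases, and CTSF 123 and 51 bases. GRN held no CACGTG in this window, and NPC2 held none in either of its windows. These matches describe letters only, and elements without CACGTG were not searched, so a window without it may hold another form. The genes with CACGTG had a median log2 fold change of 0.08 (10 genes) in HIV-1+LTA against HIV-1, and those without had 0.11 (16 genes). With PBS as the reference the order turned, with 0.10 for the genes with CACGTG and 0.07 for those without.

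Levels of the 38 genes spanned a wide range. Compared per kb of the canonical transcript, the highest mean level over the 9 libraries was that of PSAP, at 315 CPM per kb (range 279 to 380), the precursor of the saposins that present sphingolipids to their hydrolases. CD63, a tetraspanin of late endosomes, followed at 303 (244 to 339). The ranges of these genes overlapped, and CTSZ, a carboxypeptidase, came next at 172 (144 to 191), below the range of CD63. From CTSZ downward every neighbour in the order overlapped the next in range, so no further step was larger than the spread between libraries. The lowest were CTSK at 1.19, the collagen-degrading cathepsin known from osteoclasts, TFEB at 0.72 and the little-studied cysteine protease CTSO at 0.45 CPM per kb.

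**Figure D1:**
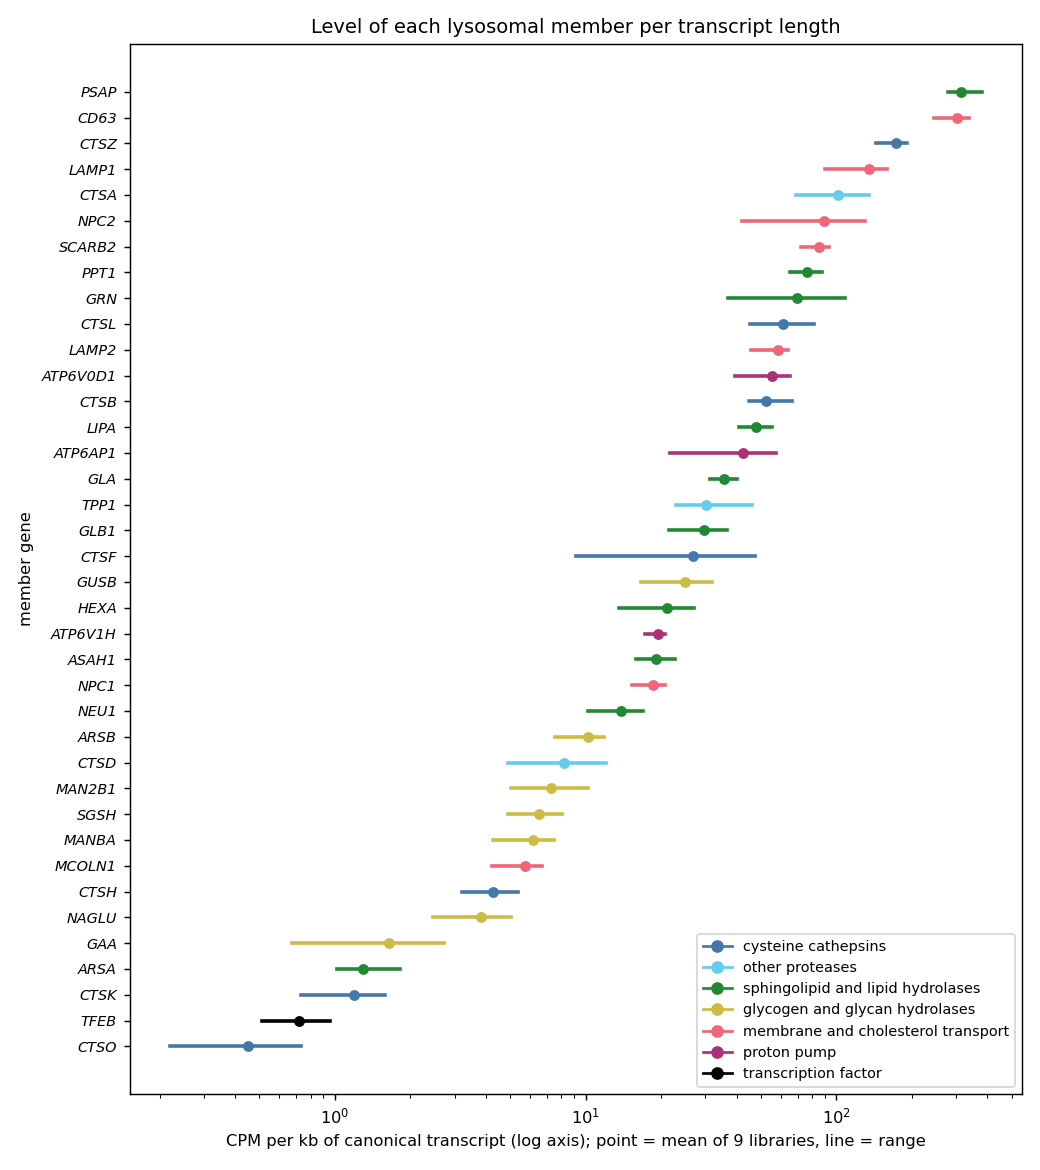
Level of each of the 38 lysosomal genes in CPM per kb of canonical transcript (log axis), with the mean of 9 libraries as a point, the range as a line, and colours for the role. PSAP and CD63 sit at 315 and 303, and TFEB and CTSO lie below 1.

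Among the cysteine cathepsins, CTSZ ran from 216 to 286 CPM across the 9 libraries and CTSB, a broad-specificity cathepsin, from 167 to 249 CPM. CTSL, an endopeptidase, ran from 75.0 to 135 CPM. CTSF, an endopeptidase linked to neuronal storage disease, ran from 18.7 to 96.5 CPM. CTSH, an aminopeptidase, spanned 6.89 to 11.5 CPM, CTSK 1.20 to 2.59 CPM and CTSO 0.64 to 2.13 CPM (31 to 155 counts). Among the other proteases, CTSA, the protective protein of the neuraminidase complex, spanned 128 to 250 CPM. TPP1, a tripeptidyl peptidase, spanned 80.3 to 160 CPM, and CTSD, an aspartic protease, 10.1 to 24.8 CPM.

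Of the sphingolipid and lipid genes, PSAP spanned 767 to 1045 CPM. PPT1, which removes palmitate from proteins, spanned 149 to 200 CPM, GRN, the progranulin precursor of granulins, 78.9 to 230 CPM, and LIPA, the acid lipase for cholesteryl esters, 102 to 138 CPM. The hexosaminidase subunit HEXA (65.2 to 129 CPM), the galactosidases GLB1 (54.3 to 92.1 CPM) and GLA (41.3 to 52.7 CPM), acid ceramidase ASAH1 (44.1 to 63.2 CPM), sialidase NEU1 (34.4 to 56.9 CPM) and the sulfatide sulfatase ARSA (4.38 to 7.83 CPM) were lower. Among the glycogen and glycan hydrolases, β-glucuronidase GUSB spanned 36.6 to 70.3 CPM and the sulfatase ARSB 36.5 to 57.7 CPM. The mannosidases MANBA and MAN2B1 spanned 17.0 to 30.0 and 16.1 to 32.6 CPM. The heparan sulfate enzymes SGSH and NAGLU spanned 13.2 to 21.7 and 6.08 to 12.5 CPM, and GAA, which digests glycogen, 2.52 to 10.2 CPM.

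Of the membrane genes, SCARB2, the carrier of glucocerebrosidase, spanned 338 to 437 CPM and LAMP1 244 to 431 CPM. LAMP2 spanned 299 to 419 CPM and CD63 250 to 346 CPM. The cholesterol transporters NPC1 and NPC2 spanned 72.8 to 99.1 and 34.5 to 107 CPM, and the calcium channel MCOLN1 8.80 to 13.9 CPM. The proton pump genes ATP6AP1, ATP6V0D1 and ATP6V1H spanned 44.7 to 118, 64.3 to 106 and 36.5 to 43.9 CPM. TFEB had 1.19 to 2.23 CPM (65 to 153 counts). Exons of CTSZ, HEXA, CTSD, CTSA, MAN2B1 and TPP1 share 2141, 1780, 1431, 1403, 1138 and 813 bases with other annotated genes in GENCODE v44 lifted to GRCh37, and GUSB has related pseudogenes. How reads in shared sequence were counted is not given in the sources used here, so these levels are less certain.

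The largest differences in these genes lay between batches. In batch 3 most of the lysosomal genes stood lower than in batches 1 and 2, whatever the treatment: by edgeR's quasi-likelihood test with Benjamini-Hochberg adjustment, 34 of 38 passed (89.5%, against 71.2% of all genes tested), of which 31 fell (81.6%, against 36%) and 3 rose (7.89%, against 35.2%). The median over the 38 genes was -0.52 on the log2 scale, against -0.01 over all genes. CTSF fell most, by 1.64 on the log2 scale (SE 0.0981, adjusted p 2.65e-08). In CPM, and in the order PBS, HIV-1, HIV-1+LTA, CTSF was at 66.5, 65.4 and 65.6 in batch 1, at 66.8, 63.3 and 96.5 in batch 2, and at 21.1, 18.7 and 28.8 in batch 3. All 3 libraries of batch 3 thus lay below all 6 of the others. Stellate cell markers differed between batches too: of 13 tested, 5 rose and 6 fell in batch 3 in edgeR. Their log2 fold changes ran from -11.3, the lowest of all genes tested, to 3.01, and their part in the lysosomal difference was not tested. In bulk RNA, fewer cells that express a gene and less RNA per cell cannot be told apart.

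CTSO fell by 1.23 (SE 0.263, adjusted p 0.00121), ATP6AP1, an accessory subunit of the proton pump, by 1.21 (SE 0.0477, adjusted p 1.04e-09), and NPC2 by 1.19 (SE 0.0803, adjusted p 7.57e-08) in the same edgeR fit. The 3 genes that rose were CTSL, by 0.57 (SE 0.0502, adjusted p 7.28e-07), CTSB, by 0.28 (SE 0.0513, adjusted p 3.35e-04), and LIPA, by 0.24 (SE 0.0431, adjusted p 3.00e-04). In the same order, CTSL was at 96.0, 90.4 and 90.1 CPM in batch 1, at 75.0, 85.0 and 85.0 CPM in batch 2, and at 124, 129 and 135 CPM in batch 3. The cysteine cathepsins were therefore split between batches, with CTSL and CTSB higher and CTSF, CTSO, CTSK, CTSZ and CTSH lower in batch 3. All 7 glycogen and glycan hydrolases, all 7 membrane and cholesterol genes and all 3 proton pump genes fell in edgeR. The smallest fall among passing genes was that of ATP6V1H, a pump subunit, at -0.12 (SE 0.0473, adjusted p 0.0345 in edgeR). The 4 genes that did not pass were PSAP, TPP1, TFEB and ARSA. DESeq2 with the batch block called 32 of the 38 (84.2%, against 55.7% of all genes), 29 lower (76.3%, against 28.3%) and 3 higher (7.89%, against 27.4%), and ATP6V1H and the galactosidase GLA were no longer among them. ATP6V1H also lost its call in edgeR without the HIV-1 library of batch 2 or of batch 3, or the HIV-1+LTA library of batch 3.

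**Figure D2:**
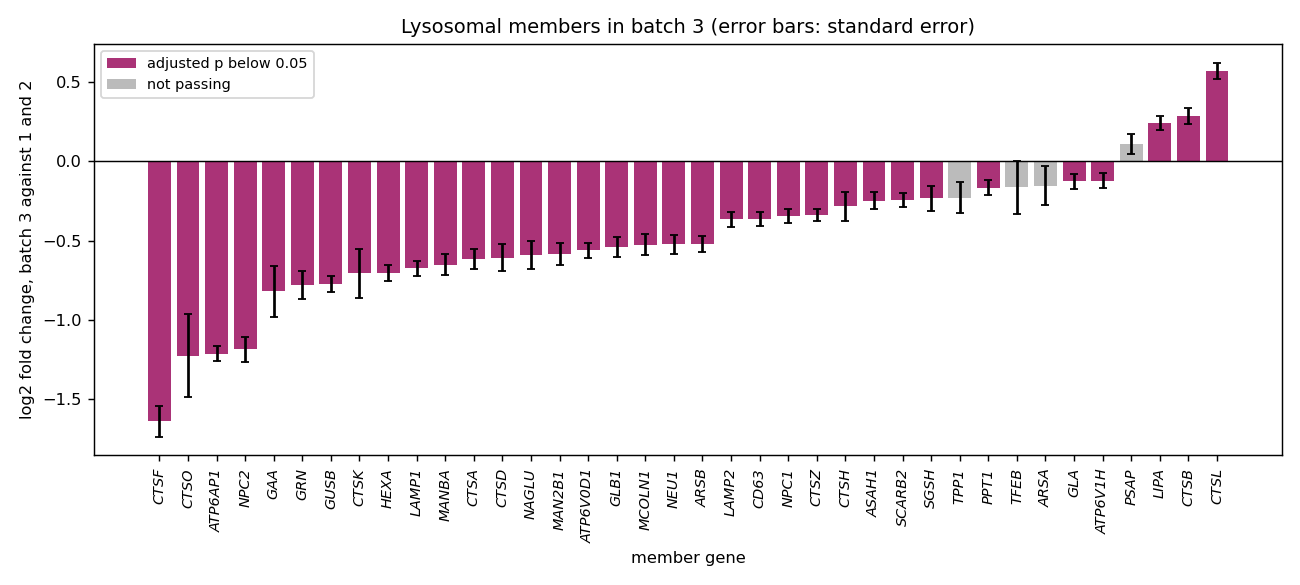
Log2 fold change of each lysosomal gene in batch 3 against the mean of batches 1 and 2, from the edgeR fit, with standard errors as bars and grey for genes that did not pass an adjusted p of 0.05. CTSF is lowest at -1.64, and CTSL is highest at 0.57.

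HIV-1 alone was compared with PBS to see whether exposure to the virus at this dose moved the lysosomal genes within 24 h. None of the 38 passed in edgeR (0% of all 16117 genes were called, with 678 genes and 0 members at an unadjusted p below 0.05) or in DESeq2 with the batch block (3 of 19990 genes, 0.015%, with 1 higher, 0.005%, and 2 lower, 0.01%). The median log2 fold change over the 38 genes was -0.02, and 17 of 38 lay above 0, against 49.2% of all genes. Batch medians were 0.01, -0.04 and -0.03. Of the 38, 4 were higher in all 3 batches (10.5%, against 16.3% of all genes) and 6 were lower in all 3 (15.8%, against 17.1%).

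The highest genes with the same sign in every batch were NEU1 (log2 fold change 0.10, SE 0.0660), MANBA (0.08, SE 0.0728), ATP6V0D1 (0.07, SE 0.0511) and MCOLN1 (0.05, SE 0.0752). The lowest were LIPA (-0.11, SE 0.0501), NPC2 (-0.11, SE 0.0874), CTSF (-0.09, SE 0.104) and CTSZ (-0.07, SE 0.0460), all with an edgeR adjusted p of 0.946 or more. LIPA had 115, 114 and 138 CPM in the PBS libraries of batches 1 to 3 and 115, 102 and 123 CPM in the HIV-1 libraries, so the groups overlapped. TFEB stood at 0.05 (SE 0.191), and its sign turned to -0.07 without the HIV-1 library of batch 1. Among related genes outside the 38, the lowest unadjusted p in each fixed list belonged to the proton pump subunit TCIRG1 (log2 fold change 0.18, SE 0.0774), the membrane protein GPR137 (0.19, SE 0.0613), the acid phosphatase ACP2 (0.16, SE 0.0712), the adaptor subunit AP3D1 (0.11, SE 0.0551), the mTORC1 regulator FLCN (0.18, SE 0.0813), the autophagy receptor SQSTM1 (0.15, SE 0.0599) and the protease inhibitor SERPINB1 (-0.13, SE 0.0551), none of them passing in either tool. Mitochondrially encoded transcripts stood lower with HIV-1: 0 of 13 lay above 0 (median -0.21, with batch medians of -0.05, -0.43 and -0.13). Of these, 9 had an unadjusted p below 0.05 in edgeR, and none was called in edgeR or DESeq2.

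The HIV-1+LTA libraries of batches 2 and 3 held higher lysosomal levels than the HIV-1 library of the same batch. Almost none of this was seen in batch 1, and each batch sets 1 library against 1. Of the 38 genes, 34 lay above 0 in the edgeR fit (89.5%, against 48.9% of all genes), with a median log2 fold change of 0.13 against 0.00 over all genes. Batch medians over the 38 were 0.00, 0.21 and 0.18, with 20, 34 and 31 genes above 0. In batches 2 and 3 together, 30 of 38 were higher (78.9%, against 31.7% of all genes), and 18 of 38 were higher in all 3 batches (47.4%, against 16.7%). Summed over the 38 genes, the HIV-1 libraries held 4849, 4619 and 3777 CPM in batches 1 to 3, and the HIV-1+LTA libraries 4864, 5412 and 4399 CPM.

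In edgeR with the batch block, no member passed (0% of all 16117 genes were called, lowest adjusted p 0.171). At an unadjusted p below 0.05 there were 2486 genes in all and 15 members, every one of them higher. DESeq2 with the batch block called 5 members, all higher (13.2%, against 1.26% of 19990 genes called and 0.91% called higher, the other 0.35% being lower): GRN, CTSF, PSAP, NPC2 and CTSA. Only 13014 of the 19990 genes received an adjusted p here, so the share called is higher among genes that could be called. limma-voom with the block called no gene and no member, with 15 members at an unadjusted p below 0.05. DESeq2 without the block called 1 gene (0.005%) and no member, with 3 members at an unadjusted p below 0.05.

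GRN, on the plus strand of chromosome 17 from 42422614 to 42430474 (hg19), encodes progranulin, a secreted protein that is cut to granulins in the lysosome. It had 142, 170 and 78.9 CPM in the PBS libraries of batches 1 to 3, 159, 161 and 86.5 CPM with HIV-1, and 166, 230 and 139 CPM with HIV-1+LTA. Within each batch the HIV-1+LTA library was the highest of the 3, while the groups overlapped across batches. GRN rose against HIV-1 by 0.43 on the log2 scale in DESeq2 (SE 0.0963, adjusted p 0.00354). The edgeR fit gave 0.42 (SE 0.0999, 1.34-fold, adjusted p 0.171), and adjusted p over the alternatives ran from 1.71e-07 to 1. Here and below, the alternatives do not include the DESeq2 fits without a batch or library, some of which gave lower values. For GRN, DESeq2 without the HIV-1+LTA library of batch 1 gave an adjusted p of 3.96e-11.

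CTSF lies on the minus strand of chromosome 11 from 66330935 to 66336350. With HIV-1+LTA its level was 96.5 CPM in batch 2 and 28.8 CPM in batch 3, against 63.3 and 18.7 CPM with HIV-1, while in batch 1 it was 65.6 against 65.4 CPM. The log2 differences were 0.00, 0.61 and 0.62 in batches 1 to 3. CTSF rose by 0.42 in DESeq2 (SE 0.104, adjusted p 0.00929), with adjusted p from 6.61e-06 to 1 over the alternatives. CTSA, on chromosome 20 from 44518783 to 44527588, had 209, 192 and 128 CPM with HIV-1 and 213, 250 and 159 CPM with HIV-1+LTA. It rose by 0.25 in DESeq2 (SE 0.0747, adjusted p 0.0487, from 3.68e-04 to 1 over the alternatives).

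PSAP, on the minus strand of chromosome 10 from 73576055 to 73611008, had 794, 821 and 861 CPM with PBS, 814, 767 and 826 CPM with HIV-1, and 821, 1036 and 1045 CPM with HIV-1+LTA. The HIV-1+LTA libraries of batches 2 and 3 lay above every other library, and that of batch 1 did not. PSAP rose against HIV-1 by 0.26 in DESeq2 (SE 0.0734, adjusted p 0.0250, from 6.01e-04 to 1 over the alternatives). NPC2, on the minus strand of chromosome 14 from 74942895 to 74960880, had 91.2, 74.7 and 34.5 CPM with HIV-1 and 89.8, 107 and 45.4 CPM with HIV-1+LTA. It rose by 0.30 in DESeq2 (SE 0.0915, adjusted p 0.0486, from 2.42e-04 to 1 over the alternatives), although its difference in batch 1 was -0.02.

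**Figure D3:**
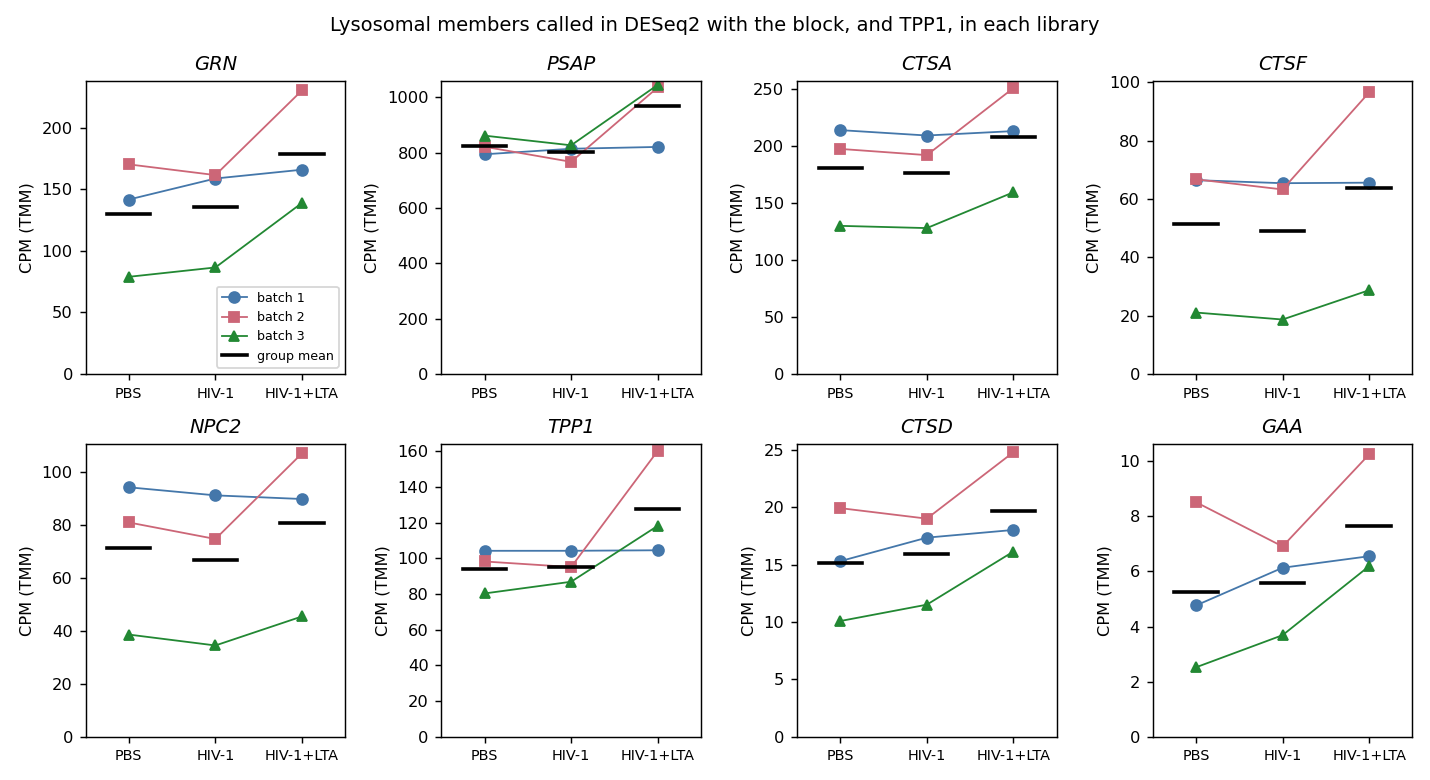
CPM of 8 lysosomal genes in each of the 9 libraries (vertical axis from 0), with lines joining the libraries of a batch and black bars for the group mean (n = 3). In batch 1 TPP1, CTSF and CTSA lie level across the 3 groups, and in batches 2 and 3 the HIV-1+LTA library is the highest for all 8 genes.

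Several further genes of the same roles had values of similar size without passing. TPP1, on the minus strand of chromosome 11 from 6633999 to 6640679, had 104.2, 95.1 and 86.9 CPM with HIV-1 and 104.5, 160 and 118 CPM with HIV-1+LTA. Its groups did not overlap, as was also the case for TFEB and SGSH, which makes 3 of 38 members (7.89%, against 2.12% of all genes). For TPP1 the gap lay only between the nearly level batch 1 libraries. The edgeR estimate for TPP1 was 0.41 (SE 0.114, adjusted p 0.187), and the DESeq2 adjusted p was 0.244. GAA, with 6.13, 6.90 and 3.69 CPM for HIV-1 and 6.55, 10.2 and 6.19 CPM for HIV-1+LTA, stood at 0.46 in edgeR (SE 0.177, adjusted p 0.256). CTSD, with 17.3, 19.0 and 11.5 CPM and then 18.0, 24.8 and 16.1 CPM, stood at 0.31 (SE 0.0937, edgeR adjusted p 0.205).

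By role, the 3 other proteases had a median of 0.31, the 7 glycogen and glycan hydrolases 0.23, the 7 cysteine cathepsins 0.18 and the 10 sphingolipid and lipid genes 0.16, with 3 of 3, 6 of 7, 6 of 7 and 10 of 10 members above 0. The 7 membrane and cholesterol genes had a median of 0.08 (7 of 7 above 0), of which NPC2, a soluble protein of the lumen, passed in DESeq2, while LAMP1 and LAMP2 stood at 0.07 (SE 0.0510) and 0.08 (SE 0.0506). The 3 proton pump genes had a median of -0.01 (1 of 3 above 0). CTSK and ATP6V1H were the lowest genes with one sign in every batch, at -0.12 (SE 0.169) and -0.07 (SE 0.0543), with edgeR adjusted p of 0.774 and 0.561. Within the cathepsins, CTSZ and CTSL, 2 of the most abundant, stood at 0.00 (SE 0.0461) and 0.02 (SE 0.0591). Roles were not tested against each other.

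**Figure D4:**
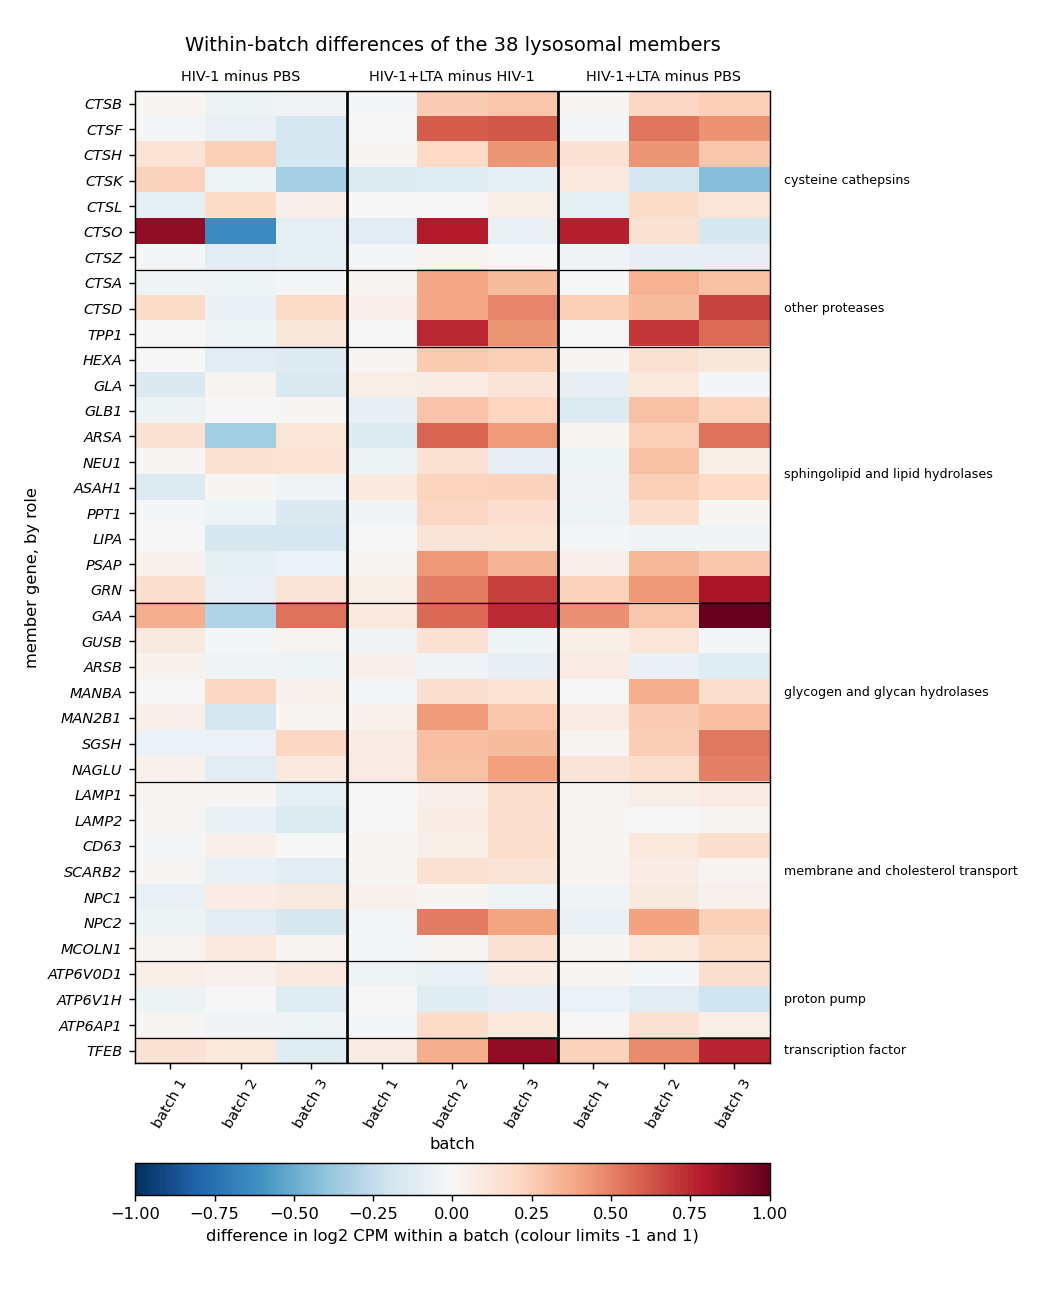
Difference in log2 CPM within each batch for the 38 lysosomal genes (rows, by role) in the 3 comparisons (3 columns each, one per batch), from blue (lower) to red (higher), with colours ending at -1 and 1. For HIV-1+LTA minus HIV-1, batch 1 is pale and batches 2 and 3 are mostly red, with medians of 0.00, 0.21 and 0.18.

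TFEB, on the minus strand of chromosome 6 from 41651716 to 41703997, had 1.52, 1.54 and 1.30 CPM with PBS, 1.68, 1.67 and 1.19 CPM with HIV-1, and 1.79, 2.16 and 2.23 CPM with HIV-1+LTA. Every HIV-1+LTA library lay above every library of the other groups. The edgeR estimate was 0.44 against HIV-1 (SE 0.189, unadjusted p 0.0376, adjusted p 0.294), so TFEB did not pass, and neither did it in DESeq2 (adjusted p 0.369). Its relatives did not pass either: MITF, with 45.0, 41.3 and 46.8 CPM in HIV-1 and 47.2, 46.3 and 54.9 CPM in HIV-1+LTA, stood at 0.16 (SE 0.0556, edgeR adjusted p 0.245), and TFE3 stood at -0.05 (SE 0.0505, edgeR adjusted p 0.703).

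Further lysosomal genes, from lists set by function, were read in the same fit. Of 28 tested other hydrolases and activators, 25 lay above 0 (median 0.11; batch medians 0.03, 0.15 and 0.15), with none called in edgeR and 1 in DESeq2. Of 22 other lysosomal membrane proteins, 12 lay above 0 (median 0.01), and of 18 other proton pump subunits 7 did (median -0.05). The 16 genes of mannose 6-phosphate tagging and sorting, which route enzymes to the lysosome, had a median of 0.00, the 24 genes of the TFEB family and mTORC1 0.01, the 29 autophagy genes 0.03 and the 5 tested cathepsin inhibitors 0.07. No gene of the lists other than the hydrolases passed in edgeR or DESeq2. The lowest unadjusted p in each of them belonged to the channel TPCN1 (0.19, SE 0.0681), the pump subunit ATP6V1D (-0.17, SE 0.0569), the tagging enzyme GNPTAB (0.16, SE 0.0636), MITF, the autophagosome protein STX17 (0.19, SE 0.0676) and the cystatin CST3 (0.23, SE 0.0960).

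**Figure D5:**
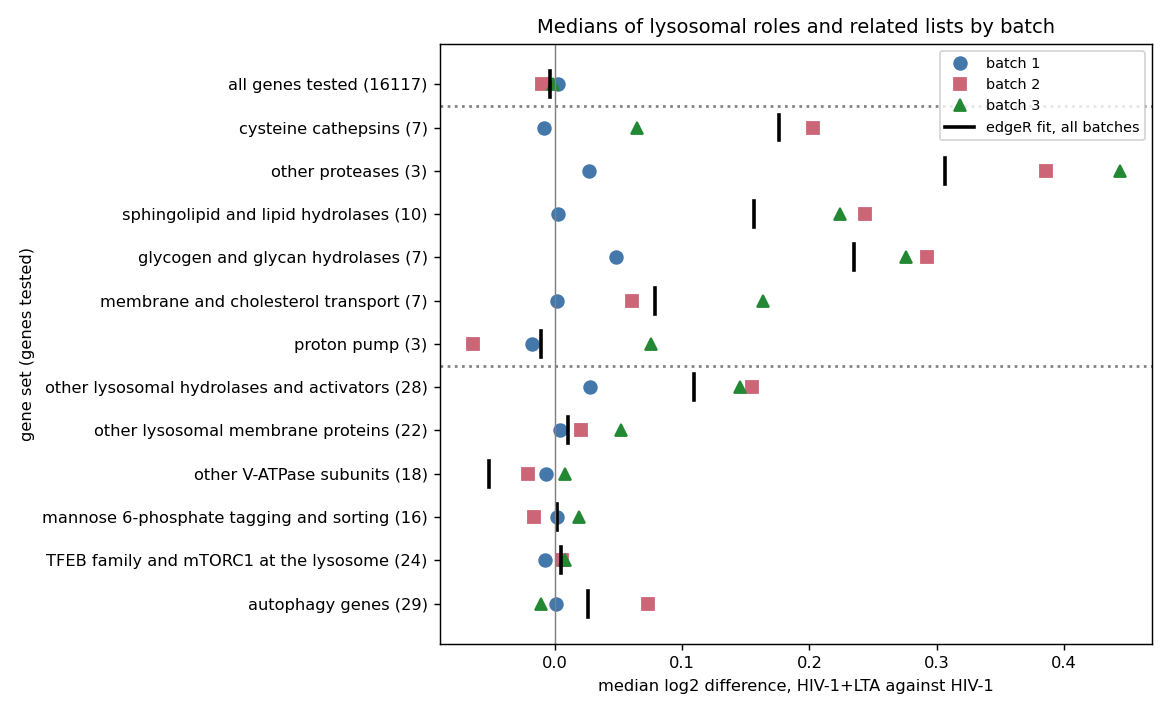
Median log2 difference of HIV-1+LTA against HIV-1 for all genes tested, the roles of the lysosomal genes and related lists (genes tested in parentheses), with symbols for the 3 batches and a black bar for the edgeR fit. The cathepsin, other protease, lipid and glycan roles lie near 0 in batch 1 and between 0.06 and 0.44 in batches 2 and 3. The lipid role holds PSAP and GRN beside enzymes. The proton pump, sorting and autophagy lists stay within 0.08 of 0.

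The calls turned on single libraries. In edgeR, leaving out the HIV-1+LTA library of batch 1 gave 17 members called (44.7%, against 14.6% of all genes), leaving out all of batch 1 gave 14 (36.8%, against 9.69%), and every other omission gave 0. In DESeq2 with the block, an alternative extended after seeing the data, the count of 5 became 15 (39.5%, against 10.7% of all genes) without the HIV-1+LTA library of batch 1 and 12 (31.6%, against 7.2%) without batch 1. It became 3 (7.89%, against 1.18% of all genes) without the PBS library of batch 1. Without the PBS library of batch 2 or of batch 3 it became 2 (5.26%, against 0.726% and 0.693% of all genes). Without the HIV-1 library of batch 1 it was 5 (13.2%, against 1.78%). It became 0 without batch 2, without batch 3, or without any 1 of the HIV-1 or HIV-1+LTA libraries of batches 2 and 3. The median over the 38 genes stayed above 0 in each of these edgeR fits, from 0.09 without the HIV-1+LTA library of batch 2 to 0.22 without batch 1. Mitochondrially encoded transcripts also stood higher with LTA added: 13 of 13 lay above 0 (median 0.18, with batch medians of 0.08, 0.27 and 0.19). They had stood lower with HIV-1 than with PBS (0 of 13 above 0, median -0.21), where the median of the 38 genes was -0.02. Their summed level ran from 12622 to 14532 CPM with PBS, from 10704 to 12642 CPM with HIV-1 and from 12933 to 15004 CPM with LTA added. The part of these transcripts in the result was not tested. Of them, the cytochrome oxidase subunits COX2 and COX1 rose in DESeq2, by 0.30 (SE 0.0788, adjusted p 0.0179) and 0.29 (SE 0.0836, adjusted p 0.0349), and none was called in edgeR. Summed macrophage markers, most of them LAPTM5, ran from 30.2 to 58.9 CPM with HIV-1 and from 36.2 to 60.5 CPM with HIV-1+LTA, and C1QA, C1QB, C1QC and VSIG4 had no count in any library. CD14, a receptor of macrophages, did rise in DESeq2 (log2 fold change 0.56, SE 0.165, adjusted p 0.0432), from 5.78, 5.82 and 3.05 CPM to 7.81, 9.72 and 4.21 CPM, and was not called in edgeR. VIM, a filament protein among the stellate cell markers, fell by 0.31 in DESeq2 (SE 0.0824, adjusted p 0.0193), while 8 of the 13 stellate cell markers tested lay above 0 (median 0.05) and no other one was called. The part of these markers in the result was not tested.

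HIV-1+LTA was also set against PBS, which shares its HIV-1+LTA libraries with the comparison above. The lysosomal genes stood higher in batches 2 and 3 here too: 32 of 38 lay above 0 (84.2%, against 50.4% of all genes), the median was 0.12, and batch medians were 0.01, 0.18 and 0.18. Of the 38, 18 were higher in all 3 batches (47.4%, against 17.5%) and 29 in batches 2 and 3 (76.3%, against 33%). No member passed in edgeR (0% of all genes, lowest adjusted p 0.205), with 2709 genes and 17 members at an unadjusted p below 0.05, 16 of these members being higher. DESeq2 with the block called 3 members, all higher (7.89%, against 1.18% of genes called and 0.59% called higher): GRN, CTSD and GAA. Only 12239 of the 19990 genes received an adjusted p in this comparison, so the share called is again higher among genes that could be called. The authors' deposited table, which does not name its comparison, also has these 3 members past 0.05, and all of its 19990 log2 fold changes lay within 0.01 of this DESeq2 fit.

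GRN rose against PBS by 0.49 in DESeq2 (SE 0.0963, adjusted p 0.00160), with log2 differences of 0.23, 0.44 and 0.82 in batches 1 to 3 and adjusted p from 1.57e-09 to 1.00 over the alternatives. CTSD, on the minus strand of chromosome 11 from 1773982 to 1785803, had 15.3, 19.9 and 10.1 CPM with PBS and 18.0, 24.8 and 16.1 CPM with HIV-1+LTA. It was higher in every batch and rose by 0.39 in DESeq2 (SE 0.106, adjusted p 0.0278, from 7.26e-04 to 1.00 over the alternatives). GAA, on the plus strand of chromosome 17 from 78075332 to 78093680, had 4.76, 8.51 and 2.52 CPM with PBS and 6.55, 10.2 and 6.19 CPM with HIV-1+LTA. It rose by 0.63 in DESeq2 (SE 0.179, adjusted p 0.0365, from 2.57e-04 to 1.00 over the alternatives), with its difference of 1.29 in batch 3 the largest among the 38 genes in this comparison. Its promoter and that of MCOLN1 share the letters GTCACGTGAC, and MCOLN1 stood at 0.10 (SE 0.0750, edgeR adjusted p 0.542).

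Genes that did not pass included TPP1 at 0.43 (SE 0.114) and TFEB at 0.50 (SE 0.186), with edgeR adjusted p of 0.205 and 0.233. With CTSH, they were the 3 members whose HIV-1+LTA and PBS groups did not overlap (7.89%, against 2.06% of all genes). For TPP1 this rested on 104.5 CPM with HIV-1+LTA against 104.2 CPM with PBS in batch 1. CTSH had 8.86, 8.50 and 7.80 CPM with PBS and 9.78, 11.5 and 9.39 CPM with HIV-1+LTA. The lowest among genes with one sign in every batch were ATP6V1H at -0.12 (SE 0.0540), CTSZ at -0.07 (SE 0.0460) and LIPA at -0.02 (SE 0.0501). The CTSF and PSAP estimates were 0.32 (SE 0.104) and 0.22 (SE 0.0726), and their DESeq2 adjusted p of 0.0717 and 0.0911 missed the threshold. By role, medians were 0.40 for the other proteases, 0.21 for the glycan hydrolases, 0.15 for the cysteine cathepsins, 0.12 for the lipid genes, 0.06 for the membrane genes and 0.06 for the proton pump.

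Of the 28 other hydrolases, 26 lay above 0 (median 0.12), and none passed. The lowest unadjusted p there was that of GALNS, a keratan sulfate sulfatase, at 0.24 (SE 0.0691). In the remaining lists the lowest belonged to the chloride transporter CLCN7 (0.28, SE 0.0804), TCIRG1 (0.31, SE 0.0770), GNPTG (0.30, SE 0.101), the mTORC1 subunit MLST8 (0.35, SE 0.111), SQSTM1 (0.21, SE 0.0599) and CST3 (0.24, SE 0.0956), again with none passing in edgeR or DESeq2. Of the mitochondrially encoded transcripts, 5 of 13 lay above 0 here (median -0.01), with batch medians of 0.04, -0.17 and 0.14, and none was called in edgeR or DESeq2. Of the stellate cell markers, 8 of 13 lay above 0 (median 0.12), and 3 were called: TIMP1, an inhibitor of matrix proteases, rose by 0.32 (SE 0.0941, adjusted p 0.0446), VIM fell by 0.31 (SE 0.0824, adjusted p 0.0276) and LOX, a collagen cross-linking enzyme, fell by 0.33 (SE 0.0940, adjusted p 0.0353) in DESeq2, with none called in edgeR. Leaving out the HIV-1+LTA library of batch 1 gave 18 members called in edgeR (47.4%, against 16.2% of all genes) and 13 in DESeq2 (34.2%, against 12.2%). Leaving out batch 1 gave 12 in edgeR (31.6%, against 10.7%) and 11 in DESeq2 (28.9%, against 8.51%), and other omissions gave 0 in edgeR. In DESeq2, GRN, CTSD and CTSF were called without the PBS library of batch 1 (7.89%, against 3.04% of all genes), GAA losing its call. The DESeq2 count became 1 (GRN, 2.63%) without any 1 of the HIV-1 libraries, against 0.399%, 0.217% and 0.0914% of all genes for batches 1 to 3. It became 0 without batch 2, batch 3, the PBS or HIV-1+LTA library of batch 2, or those of batch 3.

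None of the 38 gene bodies overlapped one of the 166 deposited peaks or had a peak within 10 kb (hg19). A peak lay within 100 kb of 2 of them: CTSH at 47872 bp and HEXA at 85704 bp. The share of all genes with a peak at these distances was not computed, so these counts cannot be read as particular to the lysosomal genes. The peaks are 181 to 430 bp long and come from 1 library. The protein that was immunoprecipitated is not given in the sources used here.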

How the data were processed

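The data are RNA-seq counts of 9 libraries and 1 ChIP-seq peak list. The submitters' processing notes name fastp, STAR, SAMtools, HTSeq, Bowtie2, bedtools and deepTools, with build hg19. Raw counts for each gene symbol were deposited. A second deposited table holds, per the file headers, DESeq2 output: a mean signal over libraries, a log2 fold change, the standard error of that change (log2), a Wald score and p-values. Versions, strand setting and ChIP antibody are not given in the sources used here.

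Counts were fitted with edgeR 4.0.16 (TMM, filterByExpr by group, quasi-likelihood test, Benjamini-Hochberg over 16117 genes, threshold 0.05), in 1 model of group and batch over all 9 libraries (4 residual degrees of freedom). DESeq2 1.42.0 took the 19990 genes whose counts summed to 10 or more, and limma-voom (limma 3.58.1) took the edgeR genes, in R 4.3.3. Percentages for DESeq2 are of all genes fitted, including those to which it gave no adjusted p. Within-batch differences are log2 CPM with a prior count of 2. Fits were also run on data simulated from the edgeR fit, and no result given here rests on those runs. Other scalings, filters, no block, and leaving out each batch or library were tried.

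The batch label equals the replicate number, so libraries were paired across groups by this label. Deviations from the group mean correlated at 0.705 to 0.917 within a batch (9 pairs) and -0.835 to 0.764 between batches (18 pairs). Every negative value came from a pair of batch 3 with another batch. Between batches 1 and 2 the values were 0.684 to 0.764, and within batches 1 and 2 they were 0.705 to 0.784. These ranges overlap, so the values set batch 3 apart but cannot show whether libraries of batches 1 and 2 pair by label. No libraries were copies (chi-square over degrees of freedom at least 3.66 in 36 pairs).

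The members and lists were chosen with earlier results of these data known. Named in each comparison were members passing edgeR or DESeq2 with the block, up to 4 highest and 4 lowest with at least 1 CPM and one sign in all 3 batches (4 and 4 passing members for batch 3), up to 3 passing genes of each other list or else the 1 with the lowest p, and TFEB. Other genes were named to describe a role, count or overlap and were chosen after their values were seen. One gene of the hydrolase list is not reported here. Canonical transcripts and positions are from GENCODE v44 lifted to GRCh37.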

Additional observations from a re-analysis of the deposited data

How the results depend on the processing

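Calls for LTA depended on the test and on batch 1. For HIV-1+LTA against HIV-1, DESeq2 with the replicate block called 252 genes (1.26%) and 5 members (13.2%). There edgeR with no filter on low counts called 1016 genes (4.02%) and 9 members (23.7%), against 0 in edgeR as planned. With PBS as the reference for HIV-1+LTA, the same settings called 236 genes (1.18%) and 3 members (7.89%), and 1045 genes (4.14%) and 7 members (18.4%). For HIV-1 against PBS they called 3 genes and 30 genes, and 0 members.

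Without the replicate block, edgeR called 0 genes in each comparison (42 for HIV-1 against PBS, then 153 and 141 for HIV-1+LTA against HIV-1 or PBS, at an unadjusted p below 0.05), and DESeq2 called 1, 1 and 0, with no member. limma-voom, DESeq2 size factors and upper quartile scaling in edgeR, all with the replicate block, called no member in these comparisons.

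Leaving out a batch or library in edgeR gave 0 to 5, 0 to 2390 and 0 to 2648 genes in the same order, and 0, 0 to 17 and 0 to 18 members. The same omissions in DESeq2 with the block, added after seeing the data, gave 0 to 46, 0 to 2108 and 0 to 2419 genes, and 0, 0 to 15 and 0 to 13 members. The member median in edgeR ran from -0.058 (without HIV-1 replicate 1) to 0.014 (without HIV-1 replicate 2) for HIV-1 against PBS. With LTA added it ran from 0.085 to 0.22 against HIV-1 and from 0.083 to 0.18 against PBS. TFEB in HIV-1 against PBS ran from -0.068 (without HIV-1 replicate 1) to 0.19. Among the members named by rule, no other changed sign in these settings, and of the member medians only that of HIV-1 against PBS did. The cause of these shifts was not tested. In batch 3 against batches 1 and 2, 29 to 35 members (76.3% to 92.1%) passed in every setting, as did 46.6% to 71.9% of all genes. Low counts limit TFEB and CTSO, at 65 to 153 and 31 to 155 counts.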
